A study of Mus musculus with 48 samples.

Results

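The comparison described here is *Brd1* heterozygous (Brd1+/-) against wild-type (WT) mice that received vehicle. It holds 16 of the 48 amygdala libraries of the series, namely the columns of the 8 WT vehicle and the 8 Brd1+/- vehicle mice, and its members were chosen by their labels alone. All animals were female mice of the strain labelled C57BL/6NTac-Brd1, 8 to 11 weeks old. WT and Brd1+/- animals were matched by litter. In the Brd1+/- line 1 allele carries a constitutive deletion inside *Brd1*. Vehicle was a saline injection, given on 2 days. All mice, the vehicle groups included, went through a tail suspension test, an open field and a forced swim before the brains were collected, so neither genotype was at rest. The remaining 32 libraries came from WT and Brd1+/- mice given an antidepressant, imipramine (IMN, at 10 mg/kg) in 1 pair of groups and, in another, fluoxetine (FLX, at 5 mg/kg), again 8 per group. A frozen punch of the right amygdala was taken from each brain, and 1 library was made from it.

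BRD1 is a bromodomain and PHD finger protein that serves as a scaffold of histone acetyltransferase complexes. Through them it is known for histone H3 acetylation and for a role in transcription during brain development. The amygdala processes threat and emotional salience, and the response of its neurons to a stressor such as swimming includes the transient transcription of immediate-early genes. The noncoding genes that follow are of several kinds. 7SL RNA, encoded by *Rn7s1* and *Rn7s2*, is the RNA core of the signal recognition particle, which brings ribosomes that make secreted proteins to the endoplasmic reticulum. Sense-intronic genes and genes of the annotation class TEC (transcript models still awaiting experimental proof) lie mostly inside introns of longer genes.

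Among the called genes are 5 that carry a miRNA name, and their mature sequences are shown here, from 5′ to 3′, because 4 of them mark a cluster described with the small RNA calls. All 5 matched the RefSeq table (GRCm38.p6), with 7 mature sequences and 7 different seeds. The seed, bases 2 to 8, which pairs with target mRNAs, is in capitals, and no seed is shared.
mmu-miR-487b-5p: uGGUUAUCccuguccucuucg
mmu-miR-667-5p: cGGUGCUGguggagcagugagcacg
mmu-miR-667-3p: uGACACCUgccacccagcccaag
mmu-miR-376c-5p: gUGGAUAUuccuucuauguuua
mmu-miR-300-5p: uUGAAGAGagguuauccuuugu
mmu-miR-300-3p: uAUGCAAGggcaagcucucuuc
mmu-miR-6236: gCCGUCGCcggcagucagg

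The first 4 of these genes, *Mir487b*, *Mir667*, *Mir376c* and *Mir300*, lie within a few kilobases of each other on chromosome 12, in the imprinted Dlk1-Dio3 region. The TPM values belong to the hairpin genes and were not made from a small RNA library, so they say nothing about the amount of mature miRNA.

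The deposited values are TPM, length-normalized shares of a library's transcripts, in which each library sums to about the same total (999524 to 999761). The read depth behind them is unknown, and a value of 0 is only a gene listed at 0. Between 24335 and 27252 genes were listed above 0 per library. The median correlation of a library with the other 15 lay between 0.90 and 0.95, and no 2 libraries were near-identical (highest correlation 0.95). Markers of neighbouring tissue set libraries apart. Summed choroid plexus markers reached 34488 TPM in WT vehicle replicate 1 and 12702 TPM in Brd1+/- vehicle replicate 3. The other WT libraries held 61.2 to 158 TPM and the other Brd1+/- libraries 148 to 1419 TPM. The medians of all libraries were 95.7 TPM in WT and 523 TPM in Brd1+/- mice. Summed hypothalamic and thalamic markers ranged from 5.14 to 95.9 TPM in WT libraries (median 48.1). In Brd1+/- libraries they ranged from 11.2 to 680 TPM (median 36.0), and replicates 2, 4 and 7 exceeded every WT library. Summed striatal projection neuron markers exceeded 4000 TPM in WT vehicle replicates 1 and 3 and Brd1+/- vehicle replicates 1, 6 and 8. Amygdala markers were present, with Lmo3 at 66.1 to 265 TPM and Wfs1 at 34.6 to 272 TPM, whereas *Rspo2*, a marker of the basolateral nucleus, ranged from 0.10 to 31.4 TPM.

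*Brd1* itself was lower in the Brd1+/- mice. WT libraries held 26.5 to 41.0 TPM of *Brd1* with a median of 37.9, and Brd1+/- libraries 21.8 to 30.6 TPM with a median of 26.2. Only 1 WT library, replicate 3, lay within the Brd1+/- range. The means were 35.6 ± 5.09 TPM (SD, n = 8) and 26.0 ± 2.90 TPM (SD, n = 8), 27.1% lower in Brd1+/- mice. The difference in means was -0.45 on the log2(TPM + 0.1) scale (two-sided exact permutation test over samples, *p* = 0.0011). In the fit across all genes (limma, Benjamini-Hochberg) the same gene had an adjusted *p* of 0.051, just outside the threshold of 0.05. The deletion spans part of the gene, so reads from the remaining exons of the targeted allele may still count. Of 11 measured genes related to the acetyltransferase complexes of BRD1 (paralogues of this scaffold, MYST-family enzymes and their small subunits), none was called. At an unadjusted *p* under 0.05, 1 was higher, *Jade1* (log2 difference 0.27, SE 0.11), and the list's median was -0.02 against 0.03 over all genes tested.

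Across all genes, 24279 passed a filter of at least 0.1 TPM in at least 8 of the 16 libraries, and 172 of them (0.708%) were called between genotypes at an adjusted *p* under 0.05 (limma, Benjamini-Hochberg). Of these, 167 (0.688% of the genes tested) were higher and 5 (0.0206%) lower in Brd1+/- mice. Noncoding genes made up 92.4% of the calls and 37.1% of the genes tested. Called noncoding genes numbered 159 of 9005 (1.77%), with 156 higher (1.73%) and 3 lower (0.0333%). Called protein-coding genes numbered 13 of 15274 (0.0851%), with 11 higher (0.072%) and 2 lower (0.0131%). At an unadjusted *p* under 0.05 there were 2068 genes (8.52%), with 6.9% of all genes on the higher side and 1.61% on the lower. Most calls were of rare transcripts, 116 with a mean under 1 TPM in both genotypes and 56 at or above it. In 102 of the 172, fewer than 4 WT libraries reached 0.1 TPM, so these genes passed the filter mainly through the Brd1+/- libraries and had to differ to be tested. Fold differences of such genes are understated on the log2(TPM + 0.1) scale.

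**Figure D1:**
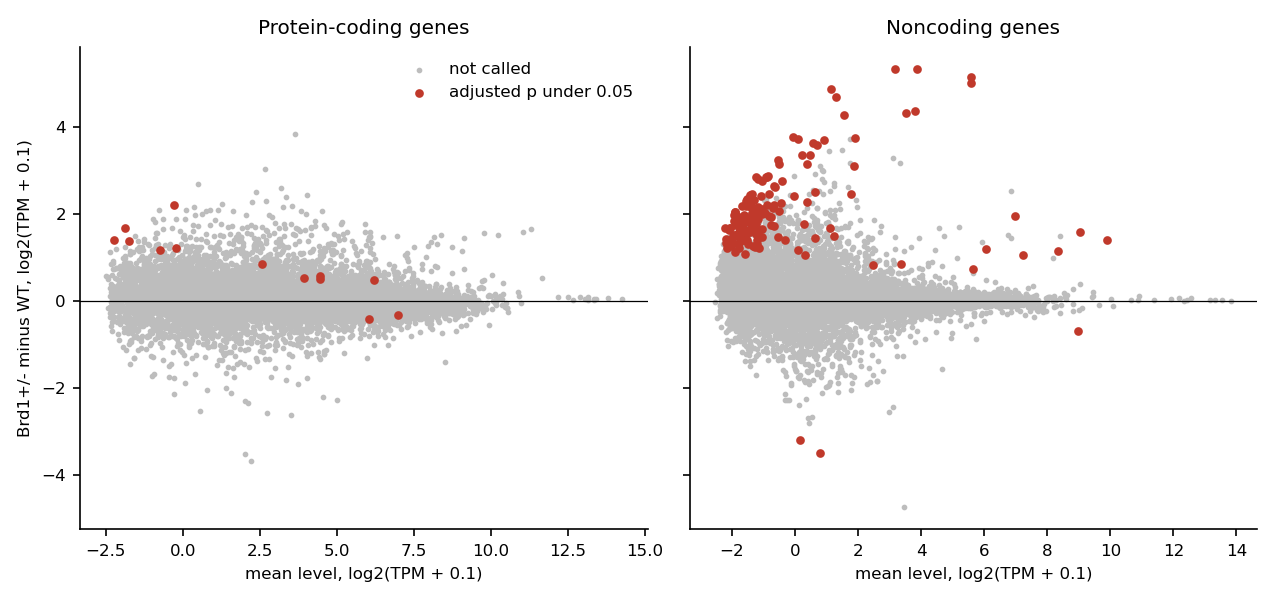
Difference between Brd1+/- and WT vehicle mice (y axis, log2(TPM + 0.1)) against mean level over both genotypes (x axis, log2(TPM + 0.1)), 1 point per gene tested, with 15274 protein-coding genes on the left and 9005 noncoding genes on the right. Red points are the 13 and 159 genes with an adjusted p under 0.05, and most of the red points on the right lie above the zero line at low mean level.

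The strongest differences were those of 7SL RNA. WT libraries held 1.36 to 4.79 TPM of *Rn7s2* (median 2.74) and Brd1+/- libraries 64.1 to 123.6 TPM (median 92.2). The groups stood far apart, at 64.1 TPM in the lowest Brd1+/- library against 4.79 TPM in the highest WT library. The difference was 5.16 on the log2 scale (SE 0.24), 35.6-fold, with a limma adjusted *p* of 2.4e-09. Its identical copy *Rn7s1* went from 2.92 ± 1.20 to 92.9 ± 20.4 TPM (SD, n = 8 each), a difference of 5.02. Among the 23 small RNA genes called, 9 were 7SL sequence, with at least 80% of their bases identical to *Rn7s2*. Besides *Rn7s1* and *Rn7s2* these were *Gm26461* (log2 difference 4.33), *Gm24105* on chromosome 5 (4.29), *Gm24514* (3.74) and 4 annotated miRNA genes that lie on *Rn7s1* or *Rn7s2* themselves. Those 4, *Gm47295* (5.34), *Gm47299* (4.37), *Gm47305* (1.69) and *Gm47287* (1.5), are annotated on stretches of these genes, so they are not separate observations. Reads from such copies cannot be told apart with certainty, and how the deposited values split them is unknown.

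7SL RNA works as a complex with signal recognition particle proteins, and it is made by RNA polymerase III. None of the 10 measured proteins of the particle and its receptor was called or passed an unadjusted *p* of 0.05, and their median difference was -0.04. Of 21 RNA polymerase III subunits and factors none was called and 2 were higher at an unadjusted *p* under 0.05, with a median of -0.03. *Rn7sk*, a polymerase III product that inhibits transcription elongation, was at 3.77 ± 2.55 TPM in WT and 7.60 ± 1.78 TPM in Brd1+/- mice (SD, n = 8 each). That difference of 1.18 (SE 0.29) was not called (limma adjusted *p* = 0.084).

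In the 32 drug-treated libraries *Rn7s2* ranged from 0.95 to 11.1 TPM with a median of 4.42, both genotypes together. The Brd1+/- vehicle group therefore stood apart from all 5 other groups, not from WT vehicle alone. The same held widely: of the 156 noncoding genes higher in Brd1+/- vehicle mice, 119 had a Brd1+/- vehicle mean above the highest of the other 40 libraries, and for 40 genes every Brd1+/- vehicle library lay above all 40. These are levels side by side, and the Brd1+/- vehicle group was not tested against the drug groups. The labels give no batch of library preparation or sequencing, so a batch that coincides with the Brd1+/- vehicle group cannot be told apart from genotype.

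**Figure D2:**
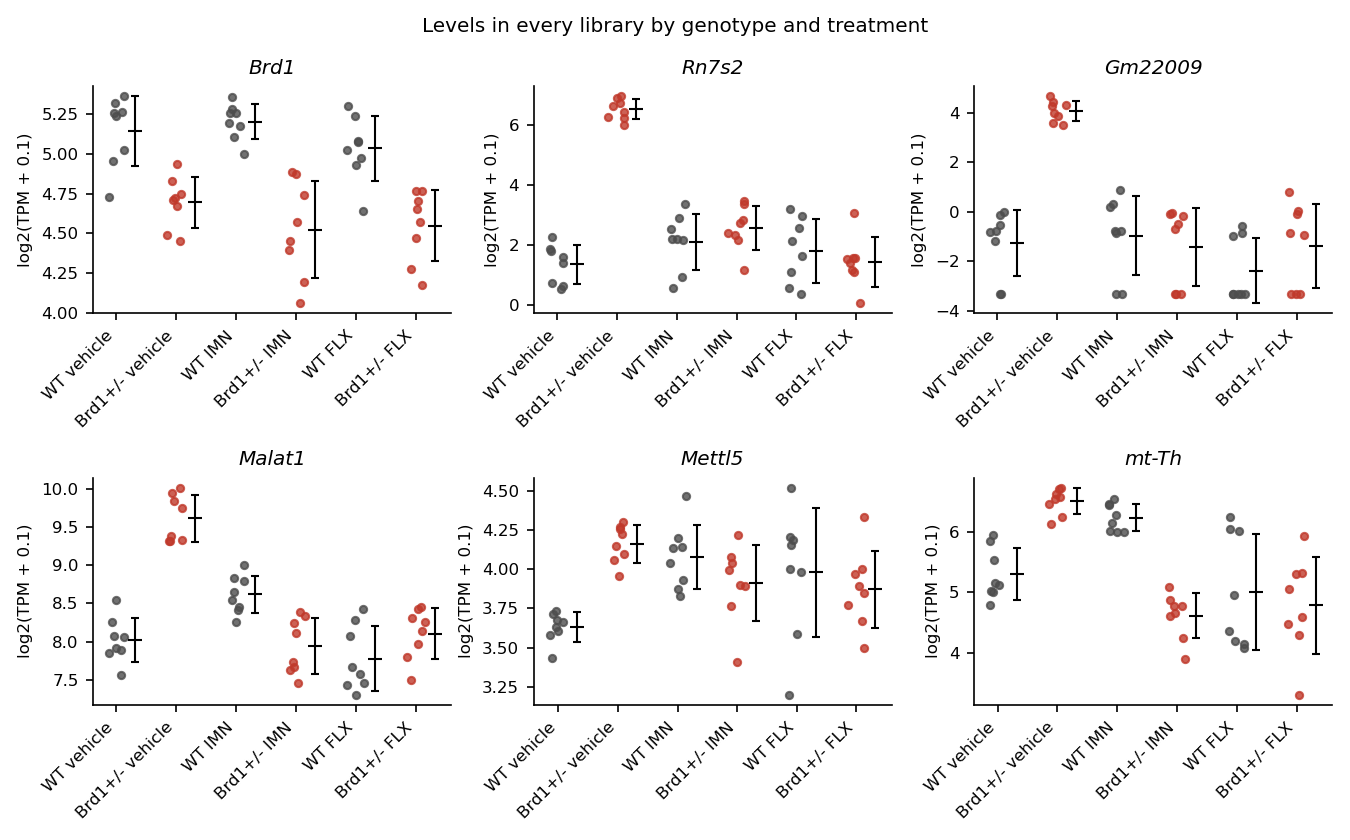
Levels of Brd1, Rn7s2, the scaRNA gene Gm22009, Malat1, Mettl5 and the mitochondrial tRNA gene mt-Th in every library (y axis, log2(TPM + 0.1)) for the 6 groups of genotype and treatment; dots are libraries, and the black bar gives the mean with its SD over 8 libraries. The mean of Brd1 is lower in Brd1+/- than in WT mice under each treatment. Its log2 difference was -0.49 with fluoxetine (limma adjusted p = 0.036) and -0.68 with imipramine (limma adjusted p = 0.10). Rn7s2, Gm22009 and Malat1 have their highest mean in the Brd1+/- vehicle group.

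The largest class of calls lay inside introns. Genes annotated as TEC or sense-intronic gave 92 calls of 1408 tested (6.53%), all higher in Brd1+/- mice. Of all 1408, 58 (4.12%) had every Brd1+/- library above every WT library, against 0.441% of all genes tested. In 213 of the 1408, and in 68 of the 92 called, fewer than 4 WT libraries reached 0.1 TPM, so these passed the filter mainly through the Brd1+/- libraries. In 24 of the 1408, and in 23 of the 92, no WT library reached 0.1 TPM. For these the lack of overlap followed from the filter, so the 4.12% is in part fixed by it. At an unadjusted *p* under 0.05 there were 364 genes of the class, 9 of them lower. Of the 92, 78 (84.8%) were contained in the intron of a coding host transcribed from the same strand, against 754 (54%) of the 1396 genes tested that carry the types TEC and sense_intronic. *Gm19409*, in *Mapre3*, which encodes a microtubule plus-end protein, went from 0.04 to 0.49 TPM (median 0.20) in WT to 0.89 to 2.18 TPM (median 1.59) in Brd1+/- libraries. Its groups did not overlap (log2 difference 2.41, SE 0.30, limma adjusted *p* = 3.2e-04). *Gm14376*, in *Cttn*, was listed at 0 in 7 WT libraries and reached 0.33 to 1.84 TPM in the Brd1+/- libraries. *Gm43751*, in the ankyrin gene *Ank2*, rose from 0.20 ± 0.21 to 1.02 ± 0.40 TPM, and *Gm29438*, in the ganglioside synthase gene *St3gal5*, from 0.32 ± 0.15 to 1.08 ± 0.51 TPM (SD, n = 8 each).

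Over all noncoding classes 84 called genes were intronic, in 68 hosts. The intronic genes had a median difference of 1.78, and the hosts a median of -0.01 with a range of -0.45 to 1.54. None of the 68 hosts was called, and at an unadjusted *p* under 0.05 1 was higher (*Anln*) and 4 were lower. The 84 were selected for their difference, and 62 of them reached 0.1 TPM in fewer than 4 WT libraries, so that they exceed their hosts follows from the selection. *Mapre3* was at 134 ± 29.6 TPM in WT and 120.6 ± 19.8 TPM in Brd1+/- mice, and *Ank2* at 268 ± 80.4 and 276 ± 57.1 TPM (SD, n = 8 each). Of 742 TEC and sense-intronic genes tested with a tested host, 82.1% had a difference above 0, against 51.1% of their 552 hosts and 55.5% of all genes, and their median was 0.52 against 0.00 for the hosts. These shares include genes that passed the filter through 1 genotype only, which raises the share above 0, and genes in 1 host are not independent of each other.

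**Figure D3:**
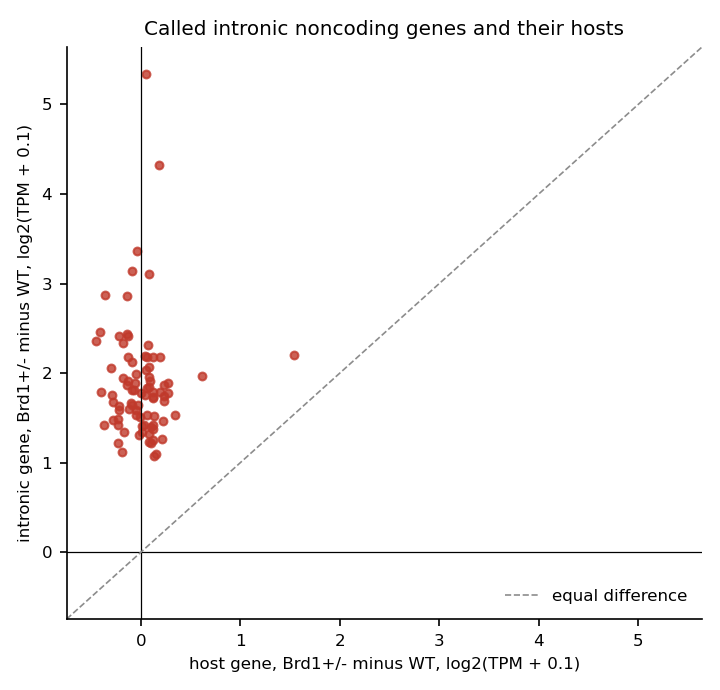
Difference between Brd1+/- and WT vehicle mice for 84 called intronic noncoding genes (y axis) against that of the protein-coding gene that hosts each (x axis), both on the log2(TPM + 0.1) scale; 1 point per intronic gene, and the dashed line marks equal differences. All points lie above the line, as the selection of called genes makes likely, and the hosts centre near 0.

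In 9 hosts there was more than 1 called gene. *Frmd4a*, which encodes a scaffold protein of cell polarity, held 6 in its introns (*Gm37814*, *Gm38348*, *Gm37107*, *Gm10862*, *Gm38085* and *Gm36988*), with differences of 1.26 to 2.18. Called genes also lay on its opposite strand, among them the antisense RNA *1700080N15Rik* (2.21) and *Gm13187* (2.22). *Frmd4a* itself, a gene that spans 596 kb, was at 32.2 ± 6.85 and 35.7 ± 10.2 TPM (SD, n = 8 each; difference 0.12, SE 0.18). *Mlxip*, *Cntnap2* and *Dlg2* held 3 each, and *Dlg2*, the gene of a postsynaptic scaffold, was at 141 ± 45.8 and 120 ± 31.9 TPM. The 68 hosts spanned a median of 96.7 kb, against 63.9 kb for 1127 hosts of intronic noncoding genes that were not called. The 68 were also more highly expressed, with a median WT mean of 59.9 TPM against 34.7 TPM. Neither feature was tested against the calls. Whether the libraries kept the strand is not given in the sources used here, so reads from an intron and from a gene opposite to it cannot be told apart.

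Calls of small nuclear RNAs were few in number, and their shares stand beside 0.708% of all genes tested. Of 308 snoRNA genes tested 1 was called (0.325%), and at an unadjusted *p* under 0.05, 7 were higher and 15 lower. Of 120 snRNA genes 1 was called (0.833%), with 15 higher and 6 lower at that *p*. Of 18 scaRNA genes 2 were called (11.1%), with 4 higher and 0 lower at that *p*. The called members in introns are described here. *Gm22009*, a scaRNA gene (a guide for modification of spliceosomal RNAs, chr3:69085105-69085447, minus strand) in an intron of *Kpna4*, was at 0 to 0.91 TPM (median 0.48) in WT and 11.3 to 25.4 TPM (median 17.6) in Brd1+/- libraries. Its difference of 5.34 (SE 0.47, limma adjusted *p* = 7.9e-06) was among the largest of all, whereas its host *Kpna4*, an importin gene, was at 52.0 ± 14.1 and 51.8 ± 4.62 TPM (SD, n = 8 each). *Scarna2*, which has a gene of its own on chromosome 3, differed by 2.65. *Gm24339*, a snoRNA gene in *Cep295*, went from 0.89 ± 0.66 to 6.23 ± 3.00 TPM, and *Gm25720*, an snRNA gene in *Plec*, from 0.28 ± 0.61 to 1.84 ± 0.69 TPM (SD, n = 8 each). The differences of *Cep295* and *Plec* were 0.09 and -0.03. The small RNA class as a whole took 0.72 ± 0.06% of TPM in WT and 0.87 ± 0.10% in Brd1+/- mice (SD, n = 8 each; two-sided exact permutation test over samples, *p* = 0.0042, 0.014 after Benjamini-Hochberg adjustment over 10 measures).

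A second cluster of small RNA calls lay in the Dlk1-Dio3 region of chromosome 12, an imprinted locus whose maternally expressed strand makes the long noncoding RNAs *Meg3*, *Rian* and *Mirg* and a large group of miRNAs and snoRNAs. Of the 23 small RNA calls, 8 were here, together with the TEC gene *Gm37899* and the lincRNA *B830012L14Rik*. *Gm37899* (chr12:109668869-109677585, plus strand) was at 0.01 to 0.05 TPM (median 0.02) in WT and 0.65 to 2.18 TPM (median 1.12) in Brd1+/- libraries. With a difference of 3.26 (SE 0.23, limma adjusted *p* = 6.6e-07) it had the largest change of any named TEC gene. *B830012L14Rik* (chr12:109695586-109702587) went from 0.09 ± 0.07 to 1.22 ± 0.55 TPM (SD, n = 8 each), a difference of 2.77.

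The miRNA genes downstream rose too. *Mir487b*, whose 5p sequence stands above, was listed at 0 in 7 WT libraries with 0.20 TPM in the remaining 1, and lay between 1.09 and 8.58 TPM (median 4.28) in Brd1+/- libraries. *Gm27379*, next to it, was at 0 in 6 WT libraries and at 1.42 to 7.61 TPM in the Brd1+/- libraries. *Mir667* (3.78), *Mir376c* (3.36), *Gm25252* (3.59), *Mir300* (3.70) and *Gm44322* (3.75) were also called, the values being log2 differences. The calls were unevenly placed. Between the end of *Rian* and the start of *Mirg*, a stretch of 68.0 kb, all 17 genes tested had a difference above 0, 9 were called, 16 passed an unadjusted *p* of 0.05, and the median difference was 3.26. From *Dlk1* to the end of *Rian*, 1 of 32 genes was called (*Gm27596*, just inside *Meg3*, 3.17) and the median was 0.13. Within *Mirg* none of 15 was called and the median was -0.01. The stretch was chosen after its values were seen, and its genes were not tested as a group. In 14 of the 17, fewer than 4 WT libraries reached 0.1 TPM, so these had to be higher in Brd1+/- libraries to be tested, and the count above 0 and the median follow in part from the filter.

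**Figure D4:**
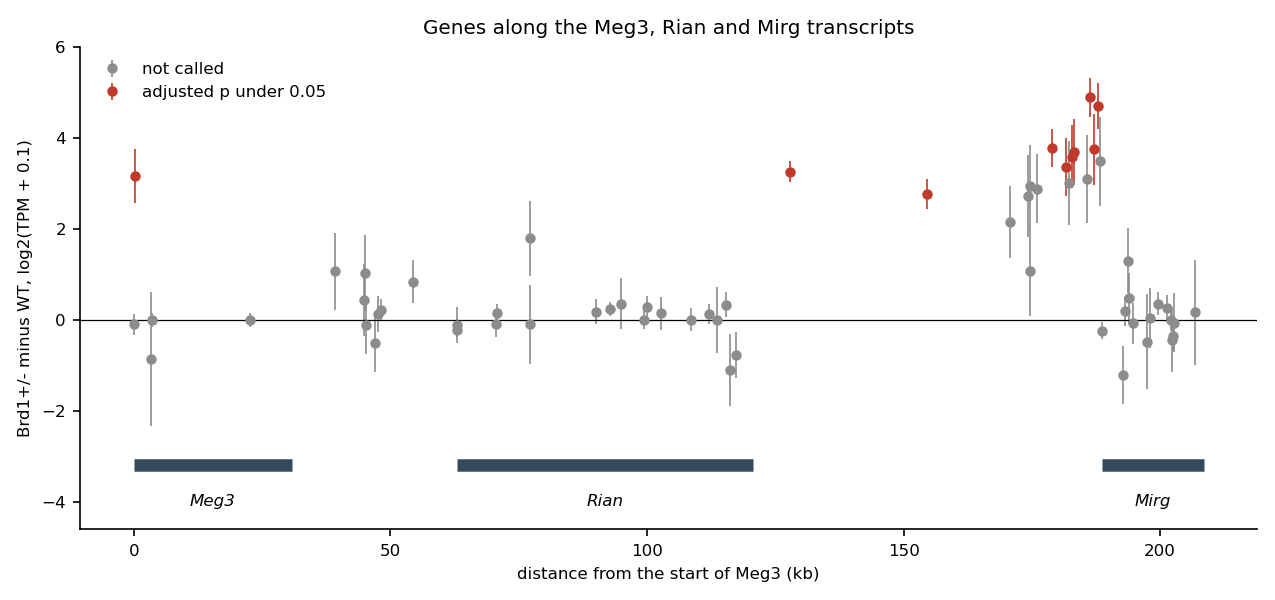
Difference between Brd1+/- and WT vehicle mice (y axis, log2(TPM + 0.1), bars are SE) for each gene tested along the maternally expressed transcripts of the Dlk1-Dio3 region, by distance from the start of Meg3 (x axis, kb); dark bars show Meg3, Rian and Mirg. The 9 called genes between Rian and Mirg lie at 2.77 to 4.89, and the genes on either side of that stretch scatter around 0 except for 1 call near the start of Meg3.

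The long transcripts of the locus did not differ beyond their spread. *Meg3* was at 487 to 1456 TPM (median 1300) in WT and 685 to 1400 TPM (median 1054) in Brd1+/- libraries, with a difference of -0.10 (SE 0.23). *Rian* and *Mirg* had differences of -0.22 (SE 0.16) and -0.24 (SE 0.19). *Dlk1*, the paternally expressed growth regulator at the edge of the region, was at 0 to 29.6 TPM in WT and 0 to 32.04 TPM in Brd1+/- libraries. In the 32 drug-treated libraries *Gm37899* did not exceed 0.13 TPM, whereas *Mir487b* reached 3.38 TPM in at least 1 of them.

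*Malat1*, an abundant nuclear RNA of speckles, was higher in every Brd1+/- library than in any WT library. It was at 190 to 372 TPM (median 255) in WT and 637 to 1031 TPM (median 765) in Brd1+/- libraries, a 3.01-fold difference (1.59, SE 0.14, limma adjusted *p* = 1.2e-05). No other of the 11 nuclear-retained long noncoding RNAs was called. *Neat1*, the paraspeckle RNA, was at 27.7 ± 33.5 and 42.4 ± 27.2 TPM (SD, n = 8 each; 0.99, SE 0.58). The list's median was -0.10. *9530059O14Rik*, a lincRNA on chromosome 9, differed by 2.47 (SE 0.30), with 0.54 to 1.25 TPM in WT and 2.83 to 11.3 TPM in Brd1+/- libraries.

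A pair of genes related to ribosomal RNA was higher. *AY036118*, annotated as a lincRNA, and *CT010467.1*, annotated as rRNA, overlap each other on chromosome 17 and share reads. *AY036118* was at 368 to 770 TPM (median 452) in WT and 941 to 3374 TPM (median 1107) in Brd1+/- libraries, with no overlap (1.41, SE 0.24, limma adjusted *p* = 0.0056). The highest value belongs to Brd1+/- replicate 3. The rRNA class took 0.025 ± 0.005% of TPM in WT and 0.053 ± 0.024% in Brd1+/- mice (SD, n = 8 each; exact permutation test, adjusted *p* = 0.0016). Of this difference of 278 TPM, 263 TPM came from *CT010467.1*. The class had a median log2 difference of -0.09, with 2 of 21 genes called. The number of genes listed above 0 was also higher in Brd1+/- vehicle libraries, at 25387 to 27252 against 24335 to 25611 (exact permutation test, adjusted *p* = 0.0054), and it lay between 23420 and 26549 in the drug groups. Its part in the calls of rare genes was not tested.

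Mitochondrial tRNA genes moved in both directions. Of 22 tested, 4 were called higher and 1 lower (22.7%, against 0.708% of all genes), and their median was 0.18. Of the 22, 3 were called without Brd1+/- replicate 8, 2 with mature oligodendrocyte level as a term, and 1 without the 5 libraries over 4000 TPM of striatal markers. Of the 4 higher calls, 3 (*mt-Th*, *mt-Ts2* and *mt-Tl2*, the tRNAs for histidine, serine and leucine) adjoin each other on the mitochondrial genome, at positions 11546 to 11741. *mt-Th* was at 27.6 to 61.6 TPM (median 35.2) in WT and 70.6 to 107 TPM (median 95.4) in Brd1+/- libraries (1.21, SE 0.16, limma adjusted *p* = 5.5e-04). In imipramine-treated mice the same gene was lower in Brd1+/- libraries, with a difference of -1.63 between the genotypes. *mt-Tl2* went from 99.9 ± 26.5 to 203 ± 26.2 TPM and *mt-Ts2* from 3.99 ± 0.99 to 7.01 ± 0.81 TPM (SD, n = 8 each), both without overlap. *mt-Tg*, for glycine, differed by 0.74 (SE 0.15). *mt-Tp*, for proline, which is encoded on the opposite strand, fell from 532 to 730 TPM (median 609) in WT to 300 to 524 TPM (median 366) in Brd1+/- libraries (-0.69, SE 0.11, limma adjusted *p* = 0.0031), also without overlap. None of the 13 mitochondrial mRNAs was called, and their median was 0.06.

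Among protein-coding genes the 13 calls fell into rare and well-expressed ones. Of the 3 single-exon genes among them, each lay inside another gene: *Gm10277* (2.22, SE 0.23) opposite to *Myo18a*, *B130006D01Rik* (1.67, SE 0.27) in an intron of *Zfp652*, and *Psapl1* (1.42, SE 0.23), a saposin-like gene, opposite to *Sorcs2*. *Gm10277* was at 0.08 to 0.26 TPM (median 0.21) in WT and 0.72 to 1.98 TPM (median 1.20) in Brd1+/- libraries. The groups of all 3 did not overlap. In WT libraries, however, *B130006D01Rik* did not exceed 0.066 TPM and *Psapl1* did not exceed 0.058 TPM. Both therefore passed the filter through the Brd1+/- libraries alone, and their lack of overlap followed from the filter. A further 3 genes were rare: *Il7r*, the interleukin-7 receptor of lymphocytes (0.27 ± 0.11 against 0.72 ± 0.19 TPM), *Wfikkn1*, a secreted protease inhibitor (0.44 ± 0.27 against 1.09 ± 0.29 TPM), and *Muc6*, a gastric mucin (0.06 ± 0.03 against 0.33 ± 0.14 TPM; SD, n = 8 each).

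*Mettl5*, which encodes the methyltransferase that places N6-methyladenosine on 18S rRNA, was the clearest well-expressed gene. WT libraries held 10.7 to 13.2 TPM (median 12.4) and Brd1+/- libraries 15.4 to 19.7 TPM (median 18.1). The groups did not overlap (0.53, SE 0.08, 1.45-fold, limma adjusted *p* = 0.0012). In the drug-treated libraries *Mettl5* ranged from 9.09 to 22.9 TPM, which covers both vehicle groups. Its mean was 12.3 TPM in WT vehicle, the lowest of the 6 groups, and 17.9 TPM in Brd1+/- vehicle, the highest. With imipramine the means were 17.0 TPM in WT and 15.1 TPM in Brd1+/- mice, and with fluoxetine 16.2 and 14.7 TPM. The drug groups were not tested against the vehicle groups. *Mettl5* lies opposite to *Ssb*, the gene of the La protein, with which reads may be shared.

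*Irf2bp2*, a transcriptional corepressor, was at 14.6 to 23.4 TPM (median 17.4) in WT and 20.2 to 33.0 TPM (median 25.2) in Brd1+/- libraries, with overlapping groups (0.59, SE 0.12). *Mcc*, a regulator of cell cycle and Wnt signalling, was at 2.11 to 4.78 TPM in WT and 4.88 to 10.9 TPM in Brd1+/- libraries, so its groups just failed to overlap (0.85, SE 0.18). *Rida*, a deaminase of reactive enamine intermediates (0.49, SE 0.10), and the zinc finger gene *D130040H23Rik* (0.51, SE 0.11) completed the higher calls. The limma adjusted *p* of these 4 lay between 0.018 and 0.048. Of 33 alternatives, 26 lost the call of *D130040H23Rik*, 19 that of *Rida*, 16 that of *Mcc* and 7 that of *Irf2bp2*. The call of *Mettl5* was lost in 2 of 33. Among the rare genes, that of *Wfikkn1* was lost in 24 of 32, of *Il7r* in 10 of 32, of *Muc6* in 5 of 22 and of *Gm10277* in 0 of 31.

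Only 2 protein-coding genes were called lower. *Arfip2*, which encodes a BAR-domain partner of ARF and RAC GTPases, was at 59.8 to 83.7 TPM (median 76.9) in WT and 53.2 to 62.3 TPM (median 55.9) in Brd1+/- libraries (-0.40, SE 0.07, limma adjusted *p* = 0.014). *Csnk1g2*, a casein kinase 1 isoform, was at 123.96 to 157 TPM (median 135.2) in WT and 93.8 to 120.7 TPM (median 112) in Brd1+/- libraries, without overlap (-0.32, SE 0.07, limma adjusted *p* = 0.039). The call of *Csnk1g2* was lost in 24 of 33 alternatives (highest adjusted *p* 0.52), and that of *Arfip2* in 4 of 33 (highest 0.38). The other lower calls besides *mt-Tp* were rare antisense RNAs. *Gssos2*, opposite to *Gss*, went from 2.70 ± 1.26 to 0.53 ± 0.99 TPM and *Gm42477*, opposite to *Rogdi*, from 1.74 ± 0.88 to 0.29 ± 0.53 TPM (SD, n = 8 each). The call of *Gssos2* was lost in 21 of 32 alternatives, and with mature oligodendrocyte level as a term no gene was called lower.

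The multi-exon genes next in order of *p* did not reach the threshold. On the higher side they were *Adgrf5*, an adhesion receptor of vessels (0.68, SE 0.15, limma adjusted *p* = 0.054), *Atp5mpl*, a subunit of ATP synthase (0.36, SE 0.08), and *Cep97* of the centriole (0.77, SE 0.18). On the lower side they were *Riox2*, a ribosomal oxygenase (-0.37, SE 0.09, limma adjusted *p* = 0.083), *Egr1* (-0.75, SE 0.19), *Hacd1* (-0.70, SE 0.18), *Prdm15* (-0.55, SE 0.15) and *Syvn1*, a ubiquitin ligase of the endoplasmic reticulum (-0.22, SE 0.06). *Riox2* was at 10.4 to 12.04 TPM in WT and 6.73 to 9.72 TPM in Brd1+/- libraries, with no overlap between the groups. *Riox2*, *Csnk1g2* and *mt-Tp* were the 3 genes (0.0124% of all genes tested) in which every Brd1+/- library lay below every WT library.

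Immediate-early genes, the transcription factors and effectors that neurons switch on within an hour of activity, were lower in direction but not called. Of 22 tested, 21 had a difference below 0 and 9 of these passed an unadjusted *p* of 0.05, against 1.61% of all genes on the lower side. The median was -0.75. The 9 became 15 without WT replicate 3, 18 without the 5 libraries over 4000 TPM of striatal markers and 5 with mature oligodendrocyte level as a term. *Egr1* was at 75.2 to 144 TPM (median 120) in WT and 31.6 to 103 TPM (median 70.5) in Brd1+/- libraries, with overlapping groups (limma adjusted *p* = 0.11). *Arc*, a synaptic effector, was at 45.7 to 166 TPM (median 85.2) and 25.8 to 98.8 TPM (median 39.0), a difference of -1.01 (SE 0.30). *Npas4* differed by -0.97 (SE 0.29), *Nr4a1* by -0.85 (SE 0.25), *Egr4* by -0.84 (SE 0.24) and *Fosb* by -0.90 (SE 0.40). *Fos* differed by -0.92 without passing an unadjusted *p* of 0.05. The members are induced together, so their count is not a count of independent genes, and none was called with all 16 libraries or after leaving out any 1 library.

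**Figure D5:**
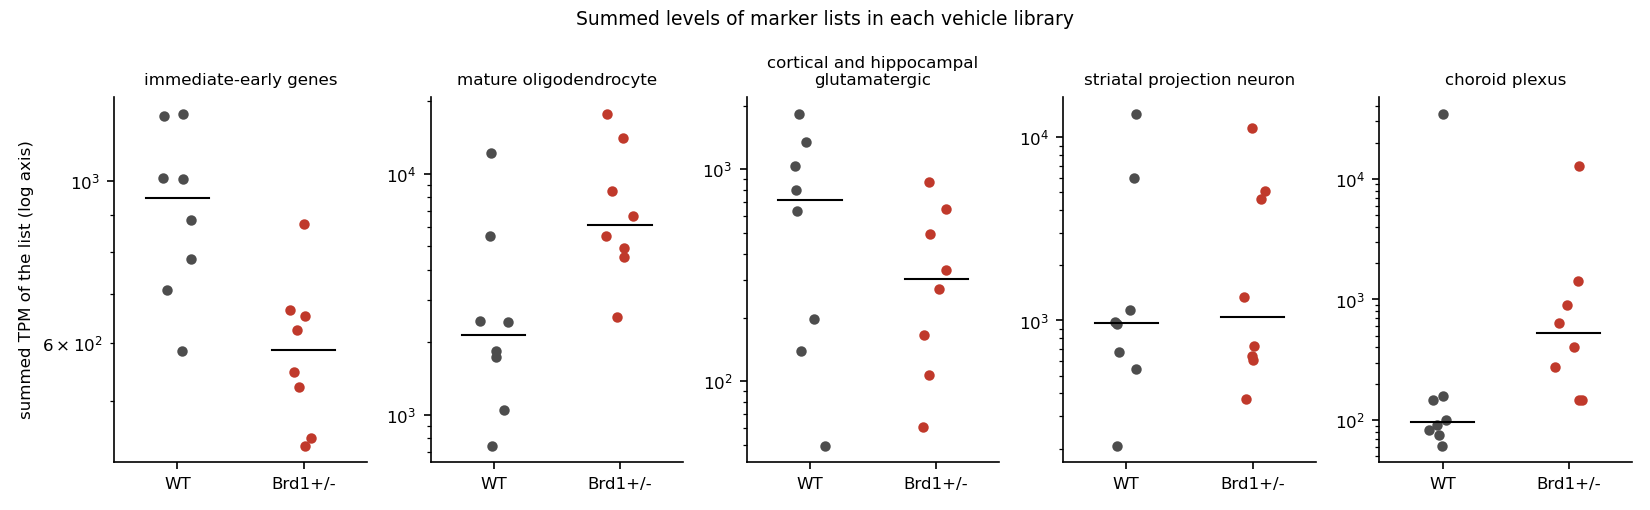
Summed TPM of 5 gene lists (y axis, log scale) in each WT and Brd1+/- vehicle library; dots are libraries and black lines the medians of 8. Immediate-early genes sum to 586 to 1236 TPM in WT and 434.1 to 875 TPM in Brd1+/- mice. Mature oligodendrocyte markers tend to be higher in Brd1+/- mice with overlap. Single libraries stand far out for choroid plexus and striatal markers, and the choroid plexus median is higher in Brd1+/- mice.

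No cell type marker was called with all 16 libraries. All 12 mature oligodendrocyte markers had a difference above 0 and an unadjusted *p* under 0.05, and the median was 1.51. Without WT replicate 1, 5 of the 12 were called, and without both libraries over 10000 TPM of choroid plexus markers 11 were called, with a median of 2.07. Their sum ranged from 746 to 12167 TPM in WT (median 2138) and from 2548 to 17710 TPM in Brd1+/- libraries (median 6123), with wide overlap. *Mbp*, myelin basic protein, differed by 1.57 (SE 0.57). At an unadjusted *p* under 0.05, 4 of 8 oligodendrocyte precursor, 4 of 9 astrocyte, 4 of 10 microglia and 3 of 9 endothelial markers were higher and none lower, with medians of 0.40, 0.37, 0.28 and 0.26. Cortical and hippocampal glutamatergic markers had a median of -1.21, with 1 of 10 higher and none lower at that *p*. This median was -0.66 without Brd1+/- replicate 1 and 0.10 with mature oligodendrocyte level as a term. In bulk tissue, fewer cells of a type and less RNA per cell cannot be told apart. No marker of these lists was listed at 0 in all 16 libraries.

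The number of calls changed when composition entered the fit or when libraries were left out. With the mean mature oligodendrocyte level as a term, 91 genes were called, every 1 of them among the 172, and protein-coding calls went from 13 to 3. Without WT replicate 1, the library rich in choroid plexus markers, 349 genes were called, of which 152 were protein-coding. Without the 5 libraries over 4000 TPM of striatal markers, 13 genes were called, all among the 172. That fit compared fewer mice. Its filter stayed at 8 libraries, so a gene that reached 0.1 TPM in Brd1+/- libraries alone could not be tested. The fall from 172 can therefore not be read as an effect of composition alone. *Rn7s1*, *Rn7s2*, *Malat1*, *Gm22009*, *Gm26461* and *Mir487b* were called under every alternative that tested them. The median immediate-early difference was -0.35 with the oligodendrocyte term.

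In the remaining pathways no member was called. That says little for lists of this size, since 0.0851% of all protein-coding genes tested were called. Lists for the unfolded protein response (22 genes), Gq signalling (26), cAMP and CREB signalling (28), adrenergic receptors (9), neurotrophic factors (18) and chemokines (9) follow pathways the study named from these samples, and are therefore not independent evidence. Their medians were -0.04, -0.18, -0.02, -0.29, 0.02 and 0.27. At an unadjusted *p* under 0.05, 2 of 22 unfolded protein response genes were lower (*Syvn1* and *Creld2*) and none higher. Of 18 cytosolic heat shock genes, 3 were lower and 1 higher at that *p*, with a median of -0.06. Over all genes tested, 1.61% were lower at that *p*. *Cxcl10*, an interferon-induced chemokine, was at 0.09 ± 0.14 and 1.00 ± 1.34 TPM (1.89, SE 0.67; SD, n = 8 each). Serotonin receptors and transporter (13 genes tested), which include the target of fluoxetine, had a median of -0.06. Glutamate receptor subunits (11) and GABA-A receptor subunits (14) had medians of -0.16 and -0.05, with 1 and 0 members lower at that *p*. Cytosolic ribosomal proteins had a median of 0.09, with 70 of 77 above 0 and 7 higher at an unadjusted *p* under 0.05. Over all genes tested, 55.5% were above 0 and 6.9% higher at that *p*. With mature oligodendrocyte level as a term, the ribosomal median was -0.01, with 1 higher and 4 lower, and the median of clustered histone genes was -0.14. With all 16 libraries and no such term, clustered histone genes, whose transcripts lack poly(A) tails, had a median of 0.34. Of 51, 44 were above 0 and 1 was higher at that *p*, or 19 higher without WT replicate 1.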

How the data were processed

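Per the labels, RNA was extracted from frozen amygdala punches and libraries were made with a TruSeq kit; whether it selected poly(A) RNA or kept strand is not given in the sources used here. The authors trimmed reads (Trimmomatic), checked them (FastQC), aligned them to GRCm38 (HISAT2 2.1.0) and deposited StringTie 1.3.4 values in TPM (length-normalized shares) for 52636 genes. No counts were used here, so depth is unknown and no counting interval is given.

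Gene types and positions came from GENCODE vM21 (99.7% of identifiers matched). Genes with at least 0.1 TPM in at least 8 of the 16 libraries were fitted as log2(TPM + 0.1) with limma 3.58.1 (trended eBayes, R 4.3.3), 8 against 8 mice without covariates, with two-sided p-values and Benjamini-Hochberg adjustment over all genes tested (threshold 0.05). Class shares and *Brd1* were tested with two-sided exact permutation tests (smallest possible p 1.6e-04). The study tested counts in pairs of groups; TPM are not counts, so limma took its place. The fit was tested first on normal values simulated from the WT vehicle libraries, with changes placed only in genes above about 1 TPM. It recovered 161 of 200 changed genes, with 12 false calls. Recovery of rarer genes, which make up most of the calls here, was not simulated. The same fit was run between the genotypes within each drug treatment, for values beside those of the vehicle groups.

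Genes named were *Brd1*, *Rn7s2*, all called protein-coding and lower genes, up to 4 called genes per noncoding type (largest difference, mean of at least 1 TPM), the 8 multi-exon genes per direction with the smallest p (at least 5 TPM), list members called or with the smallest p, and hosts; further members of the 7SL and Dlk1-Dio3 groups, of *Frmd4a* and of the lists were named after their values were seen. Comparison, members and lists were chosen with earlier results of these data known. Antisense, overlapping and near-identical genes are uncertain. Some genes and sequences are not reported here.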

Additional observations from a re-analysis of the deposited data

Results flagged for a closer look

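In 8 libraries of a group, a library was set apart when its gap to the nearest other exceeded 0.526 of the group's range. This would mark about 1 in 20 groups by chance if values were normally distributed, which TPM need not be. Of 292 groups examined, 35 held such a library. Where all other libraries of a group are at 0, as for *Mir487b* and *Gm14376* in WT, the rule marks any value above 0. Of the groups examined, WT vehicle replicate 1 stood high in choroid plexus markers (34488 TPM, others at most 158), motile cilia and ependymal markers (423 TPM), *Enpp2* (4690.3 TPM), *Rsph1* (74.1 TPM), *Sgk1* (323 TPM), *Cep97* (17.4 TPM), *Mir487b* (0.197 TPM) and summed glucocorticoid and CRH signalling genes (803 TPM), and low in GABA-A receptor subunits (471 TPM).

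WT vehicle replicate 3 stood high in the share of mitochondrial mRNA (16.6%, others at most 12.3%), mitochondrially encoded mRNAs (165691 TPM), pseudogenes (14.3%) and amygdala neuropeptides (4318 TPM), and low in protein-coding share (65.0%), neurotrophic genes (334 TPM), *Kpna4* (22.6 TPM) and *Mcc* (2.11 TPM). In the other WT libraries *D130040H23Rik* was low in replicate 2 (12.1 TPM), *Gm29438* high in replicate 2 (0.682 TPM), *Gssos2* low in replicate 4 (0.447 TPM), *Gm14376* high in replicate 7 (0.526 TPM) and *Rorb* low in replicate 8 (2.81 TPM).

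Brd1+/- vehicle replicate 3 stood high in *AY036118* (3374 TPM), *CT010467.1* (1012 TPM), the rRNA share (0.109%) and *Enpp2* (1886.5 TPM), and low in *Rps21* (575 TPM). Single values also stood out for *Gm26280* in replicate 1 (9.23 TPM, low), *Jade1* in replicate 2 (43.5 TPM, high), *Rn7sk* in replicate 4 (11.7 TPM, high), *Csnk1g2* (93.8 TPM) and *Alas2* (0.166 TPM) in replicate 6, both low, *Egr1* (31.6 TPM) and *mt-Tl2* (141 TPM) in replicate 7, both low, and *Hacd1* in replicate 8 (11.4 TPM, high).

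The genotype difference took opposite directions with vehicle and with imipramine for 3 mitochondrial tRNA genes. *mt-Th* differed by 1.21 with vehicle and -1.63 with imipramine, *mt-Tl2* by 1.06 and -1.50, and *mt-Ts2* by 0.83 and -0.63 (log2, Brd1+/- minus WT). With vehicle and with imipramine, every library of 1 genotype lay above every library of the other. The limma adjusted *p* with imipramine was 1.5e-04, 1.6e-04 and 0.40 in the same order. With fluoxetine the genotypes overlapped for all 3 genes, with differences of -0.22, -0.32 and -0.12. The difference between the treatments was not tested.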

How the results depend on the processing

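Fold changes of rare genes and counts of calls depend on the filter and on single libraries. The filter stayed at 8 libraries in every fit that left libraries out. Leaving out a Brd1+/- library therefore removed genes that reached 0.1 TPM in that genotype alone. The 172 calls became 294 without a filter, 24 at 1 TPM or more in 8 libraries, 90 after quantile normalization and 276 with all 6 groups in the fit; protein-coding calls became 2 at 1 TPM, 7 after quantile normalization, 22 with all groups and 0 when multi-exon genes were fitted alone (limma, 1017 at an unadjusted p under 0.05); noncoding calls became 280 without a filter, 22, 83 and 254. Alternatives chosen after seeing the data gave 319 calls (184 protein-coding) without both libraries over 10000 TPM of choroid plexus markers, 13 (3 and 10) without the 5 libraries rich in striatal markers, 91 (3 and 88) with the oligodendrocyte term, and 1.46% of the genes tested, 0.166% of protein-coding and 3.26% of noncoding genes, with all 6 groups fitted and the filter set over all 48 libraries. Leaving out 1 library gave 80 to 349 calls, 3 to 152 protein-coding and 76 to 197 noncoding; the highest of each came without WT replicate 1, and calls fell to 80 without Brd1+/- replicate 4. The TEC and sense-intronic share of TPM (difference 0.028 percentage points, adjusted p = 0.038) lay between 0.022 and 0.032 without 1 library and missed the threshold in 8 of 16 such fits (highest p 0.085). *Brd1* (-0.51 to -0.41) and *Rn7s2* (5.04 to 5.29) kept direction and side throughout. Replicate numbers do not pair the samples (correlations of deviations -0.32 to 0.17, none best with its own number); with a replicate block 63 genes were called, 1 of them protein-coding and 62 noncoding, all among the 172 and none lower in Brd1+/- mice; 2 of them were mitochondrial tRNA genes. No named result reversed. Depth is unknown.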
